A study of Oryza sativa with 4 samples.

Results

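Of the PIP aquaporins (plasma membrane intrinsic proteins) of rice, 10 genes were examined in root hairs. These need not be all the PIP genes of rice, and any others were not assessed. The 10 genes PIP1-1 to PIP1-3 and PIP2-1 to PIP2-7 are given here by their RefSeq synonyms (PIP1-1 is also written PIP1;1). They were chosen by name, through the RAP gene identifier at the start of each probe name. No measured value entered the rule, but the choice was made with earlier results of these data known. The 30 probes of these genes were among 42477 on the array, and the 10 genes were among 29689. PIP1-1 had 6 probes, PIP1-2 had 3, PIP2-1 had 7, PIP2-2 had 2, and PIP2-6 and PIP2-7 had 4 each. PIP1-3, PIP2-3, PIP2-4 and PIP2-5 were each measured by 1 probe.

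Aquaporins are membrane channels through which water and some small neutral solutes move along their gradients. The PIP group sits mainly in the plasma membrane and falls into the subfamilies PIP1 and PIP2. PIP2 proteins generally form channels with high water permeability when produced alone, whereas PIP1 proteins often reach the plasma membrane only after assembling with PIP2 partners in mixed tetramers. A root hair is the tip-growing extension of 1 epidermal cell, and PIPs of the root are known for the part they take in water uptake.

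RNA came from root hairs brushed off frozen seminal roots of rice seedlings, with no treatment named, 3 days after germination on MSO medium, and was hybridised in 1 colour (Cy3) to 4 Agilent arrays. The labels give 1 array as Lon-gin and replicates 3, 2 and 1 as Don-gin, while the study describes 4 biological replicates of Dongjin rice, so all 4 were kept as replicates of 1 condition. The sample titles differ likewise, with LJ for the Lon-gin-labelled array and DJ for the other arrays. Slide 2 (scan 2) held the Lon-gin-labelled array and replicate 3, and slide 1 (scan 1) held replicates 2 and 1. No other organ or treatment was among the samples, so preference for root hairs cannot be read from these values. In RNA of such a preparation, fewer cells of a type and less RNA per cell cannot be told apart.

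Values are log2 processed signals, brought to a common 75th percentile over the arrays. Before scaling, that percentile lay at 11.80 on the Lon-gin-labelled array, 11.49 on replicate 3, 10.73 on replicate 2 and 10.59 on replicate 1, and of all probes 88.5%, 85.3%, 74.0% and 71.4% were well above background in the same order. The SD of the log2 differences between arrays, over all probes above background, was 0.821 within slide 2 and 0.608 within slide 1, and it was between 0.849 and 1.06 across slides. No PIP probe had the same signal on any pair of arrays. The root-hair marker CSLD1 (Os10g0578200), a cellulose synthase-like gene needed for rice root-hair growth, had values of 14.44 on the Lon-gin-labelled array, 14.90 on replicate 3, 14.03 on replicate 2 and 14.22 on replicate 1. It is itself on the list of root-hair genes that the study chose with these arrays.

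Signals of 9 of the 10 PIP genes cleared background well on each of the 4 arrays, against 67.8% of all genes. These were the 3 PIP1 genes and 6 of the 7 PIP2 genes examined, and 26 of the 30 probes passed on every array. PIP2-7 was the exception. A mean above 8 was found for 8 of the 10 genes, against 44.7% of all genes, and these 8 were above 8 on every array, as were 40.2% of all genes. PIP2-3 was the other gene below that level. Signals of different probes depend on the probe as well as on the transcript, so the genes were not ranked by level.

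**Figure D1:**
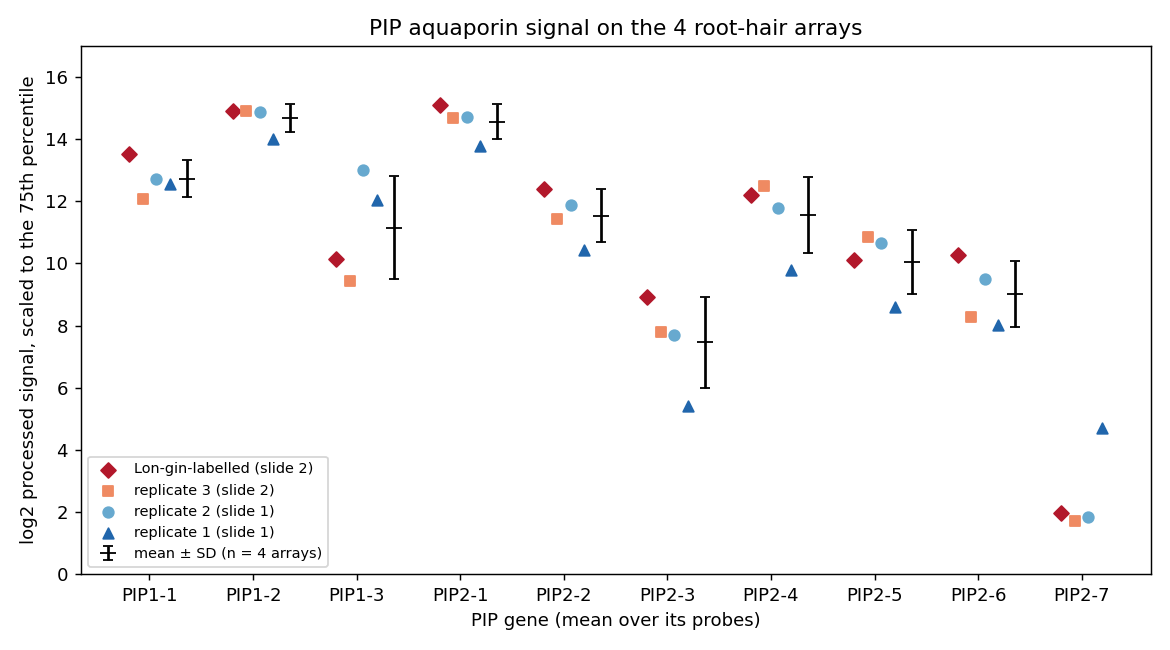
Log2 processed signal, with a common 75th percentile over arrays, of the 10 PIP genes on the Lon-gin-labelled array, replicate 3, replicate 2 and replicate 1, with mean ± SD over the 4 arrays for the 9 detected genes. Replicate 1 has the lowest point for 7 of these 9 genes, PIP1-3 has both slide 2 points below both slide 1 points, and PIP2-7 has its 1 high point on replicate 1.

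PIP1-1 (Os02g0666200), of the subfamily that often needs PIP2 partners, had 13.52 on the Lon-gin-labelled array, 12.09 on replicate 3, 12.73 on replicate 2 and 12.57 on replicate 1, or 12.73 ± 0.60 (SD, n = 4). The Lon-gin-labelled array was the highest and replicate 3, on the same slide, the lowest, so the slides overlapped. The Lon-gin-labelled array lay 1.06 above the mean of the others.

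The 6 PIP1-1 probes fell into a pair assigned to transcript 01 and 4 assigned to transcript 02. Transcript 01 probes averaged 13.03 on the Lon-gin-labelled array, 11.56 on replicate 3, 11.70 on replicate 2 and 11.62 on replicate 1. Here the Lon-gin-labelled array stood alone above 3 close values, by 1.40. Transcript 02 probes averaged 13.77 on the Lon-gin-labelled array, 12.35 on replicate 3, 13.24 on replicate 2 and 13.04 on replicate 1, with replicate 3 the lowest. The Lon-gin-labelled array exceeded the mean of the others by 0.89 for this set. Slide 2 minus slide 1 came to 0.63 for transcript 01 probes and to -0.08 for transcript 02 probes. The distance of the transcript 02 probes above the transcript 01 probes, of which only the change between arrays can be read, was 0.73 on the Lon-gin-labelled array and 0.80 on replicate 3, against 1.54 on replicate 2 and 1.42 on replicate 1. Both arrays of slide 2 thus had a smaller distance than both of slide 1. No test of the distance was made.

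PIP1-2 (Os04g0559700) had 14.90 on the Lon-gin-labelled array, 14.92 on replicate 3, 14.87 on replicate 2 and 14.00 on replicate 1, or 14.67 ± 0.45 (SD, n = 4), the smallest SD among the 9 detected PIP genes. The first 3 values were almost equal and replicate 1 stood apart below them. By the ratio of such a gap to the whole range, PIP1-2 was the 1 of 9 detected PIP genes with an array standing apart, against 4.85% of all genes. Its 3 probes gave the same order of replicate 1 below the rest and differed by at most 0.09 in their deviations.

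PIP1-3 (Os02g0823100) had the largest SD of the 9 genes. Its 1 probe read 10.13 on the Lon-gin-labelled array and 9.44 on replicate 3, against 13.01 on replicate 2 and 12.04 on replicate 1, or 11.16 ± 1.66 over all (SD, n = 4). Both arrays of slide 2 were below both arrays of slide 1, which held for 1 of 9 PIP genes and for 27.8% of all genes. Slide 2 minus slide 1 was -2.74 with a standard error of 0.47 (95% interval -3.98 to -1.50), a signal 6.69-fold higher on slide 1. In limma with Benjamini-Hochberg adjustment over all probes the unadjusted p was 0.00288 and the adjusted p 0.0646, so the probe was not called. Without replicate 3 the difference was -2.39, and without the Lon-gin-labelled array it was -3.09. With replicate 1 or replicate 2 left out it was -3.23 and -2.25. Each of these fits sets 1 array against 2, has 1 residual degree of freedom and assumes that the lone array varied like the others. With 1 probe, no second reading of PIP1-3 was at hand.

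PIP2-1 (Os07g0448800), of the subfamily whose members usually conduct water on their own, had 15.11 on the Lon-gin-labelled array, 14.68 on replicate 3, 14.71 on replicate 2 and 13.77 on replicate 1, or 14.57 ± 0.57 (SD, n = 4). Replicate 1 was the lowest, and replicates 3 and 2 were almost equal. All 7 probes had replicate 1 lowest and the Lon-gin-labelled array highest, and their deviations differed by at most 0.24. One of the 7, annotated in its name to an untranslated region, read 14.00 on the Lon-gin-labelled array, 13.60 on replicate 3, 13.86 on replicate 2 and 12.95 on replicate 1. It too had its lowest value on replicate 1.

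PIP2-2 (Os02g0629200) had 12.41 on the Lon-gin-labelled array, 11.42 on replicate 3, 11.90 on replicate 2 and 10.44 on replicate 1, or 11.54 ± 0.84 (SD, n = 4). The slides overlapped, because replicate 2 lay above replicate 3. Its 2 probes differed by at most 0.16 in their deviations.

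PIP2-3 (Os04g0521100) was read by 1 probe designed on an expressed sequence tag and had 8.93 on the Lon-gin-labelled array, 7.78 on replicate 3, 7.69 on replicate 2 and 5.43 on replicate 1, or 7.46 ± 1.47 (SD, n = 4). The highest array was 11.4-fold above the lowest. The processed signals before scaling were 768.5, 278, 154 and 29.1 in the same order. Replicate 1 thus had a dim spot, though one well above background.

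PIP2-4 (Os07g0448100) had 12.19 on the Lon-gin-labelled array, 12.50 on replicate 3, 11.78 on replicate 2 and 9.78 on replicate 1, or 11.56 ± 1.23 (SD, n = 4). Slide 2 had the higher values on both of its arrays. PIP2-5 (Os07g0448200) had 10.10 on the Lon-gin-labelled array, 10.84 on replicate 3, 10.65 on replicate 2 and 8.59 on replicate 1, or 10.05 ± 1.02 (SD, n = 4). The genes PIP2-4, PIP2-5 and PIP2-1 neighbour each other on chromosome 7 in the RefSeq annotation (assembly ASM3414082v1), with 1 gene, which is not protein-coding, between PIP2-4 and PIP2-5 and 0 between PIP2-5 and PIP2-1. All 3 were lowest on replicate 1, as were the other detected PIP2 genes, against 28.8% of all genes. On replicate 1, PIP2-4 and PIP2-5 were 4.01-fold and 4.16-fold below replicate 2 and PIP2-1 was 1.91-fold below it. PIP2-3, on chromosome 4, was 4.78-fold below it.

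PIP2-6 (Os04g0233400) had 10.26 on the Lon-gin-labelled array, 8.29 on replicate 3, 9.50 on replicate 2 and 8.02 on replicate 1, or 9.02 ± 1.05 (SD, n = 4). Each slide held 1 high and 1 low array. The Lon-gin-labelled array was 3.92-fold above replicate 3, and replicate 2 was 2.80-fold above replicate 1. The 3 probes of transcript 01 and the 1 probe of transcript 02 gave the same 2 arrays as high, and the deviations of the 4 probes differed by at most 0.50.

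**Figure D2:**
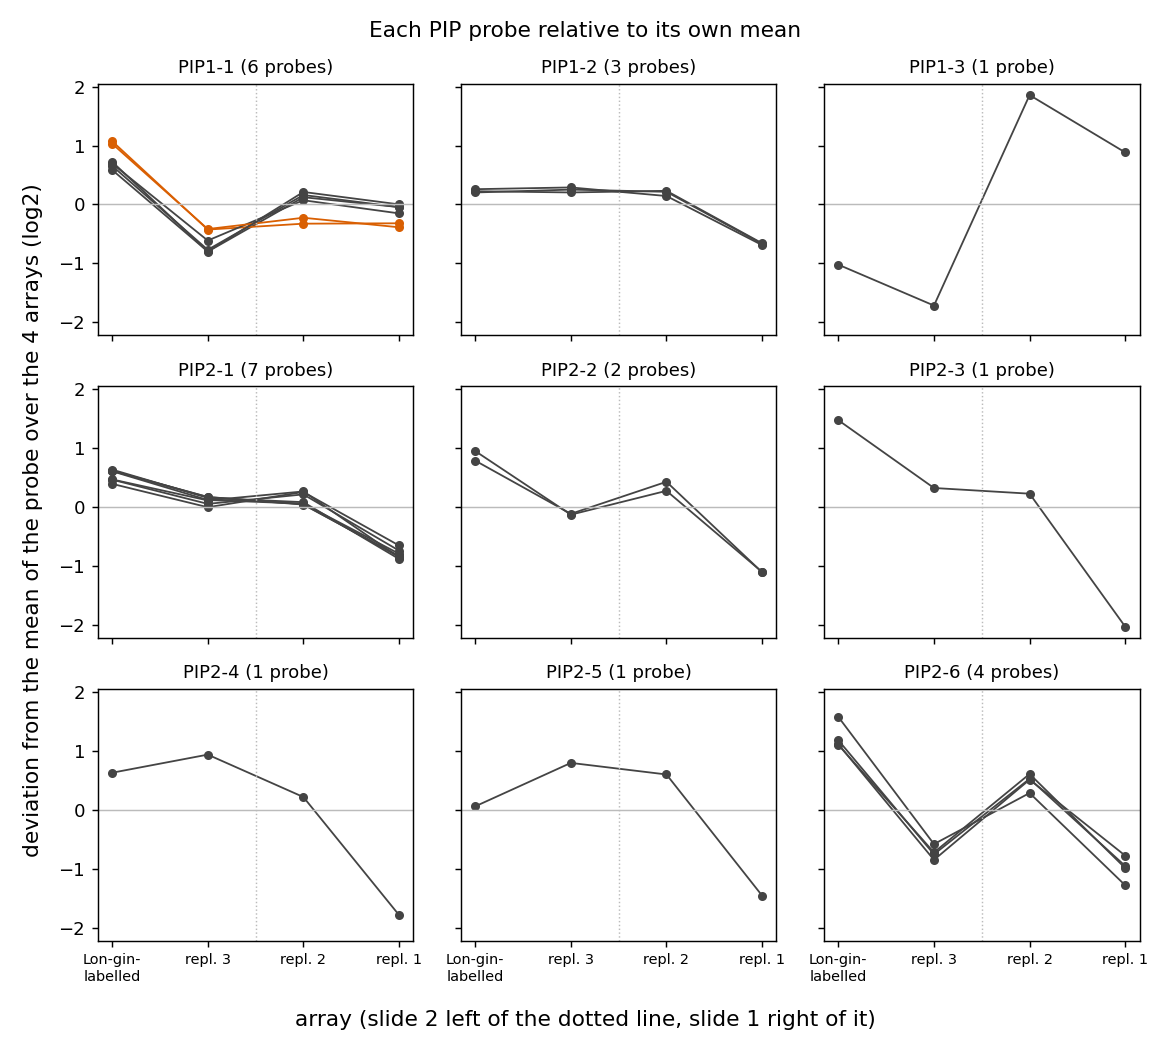
Deviation of each probe from its own mean over the 4 arrays (log2), 1 panel for each of the 9 detected PIP genes, with slide 2 left of the dotted line and slide 1 right of it. Lines of PIP1-2, PIP2-1 and PIP2-2 run close together, while in the PIP1-1 panel the orange lines are the 2 probes of transcript 01, which dip least on replicate 3 relative to slide 1.

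How far different probes of 1 PIP gene differed over the arrays was then compared. The largest difference between probe deviations was 0.54 for PIP1-1, 0.50 for PIP2-6, 0.24 for PIP2-1, 0.16 for PIP2-2 and 0.09 for PIP1-2, beside a median of 0.25 over the 5959 detected genes with several probes. PIP1-1 and PIP2-6 were above that median, PIP1-1 with the split between transcripts given above, and the other 3 were below it. In 0 of these 5 PIP genes did probes differ by more than 2-fold, against 4.63% of all such genes. Whether probes of near-identical PIP genes also bind each other's transcripts was not tested, since no probe sequence was used here.

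PIP2-7 (Os09g0541000) stood at the edge of detection. Of its 4 probes, 1 was well above background on the Lon-gin-labelled array, 1 on replicate 3, 0 on replicate 2 and 3 on replicate 1. The lowest signal that counted as well above background was 2.45 on the Lon-gin-labelled array, 2.50 on replicate 3, 3.90 on replicate 2 and 4.06 on replicate 1.

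The probe AK119719 of PIP2-7 read 1.63 on the Lon-gin-labelled array, 1.12 on replicate 3 and 1.69 on replicate 2, none of them well above background, and 6.28 on replicate 1. AK109439 read 2.83 on the Lon-gin-labelled array and 5.29 on replicate 1, and was not well above background at 2.35 on replicate 3 and 1.68 on replicate 2. AK104786 read 2.77 on replicate 3 and 4.95 on replicate 1, and was not well above background at 2.50 on the Lon-gin-labelled array and 1.85 on replicate 2. The fourth probe, AK067792, was not well above background on any array. Thus 3 of the 4 probes were well above background on replicate 1, the array with the smallest share of detected probes and the one where 7 of the other 9 PIP genes were lowest. Taken at face value the gene averaged 1.97 on the Lon-gin-labelled array, 1.71 on replicate 3, 1.85 on replicate 2 and 4.71 on replicate 1, and only the last is above the detection limit of its array.

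**Figure D3:**
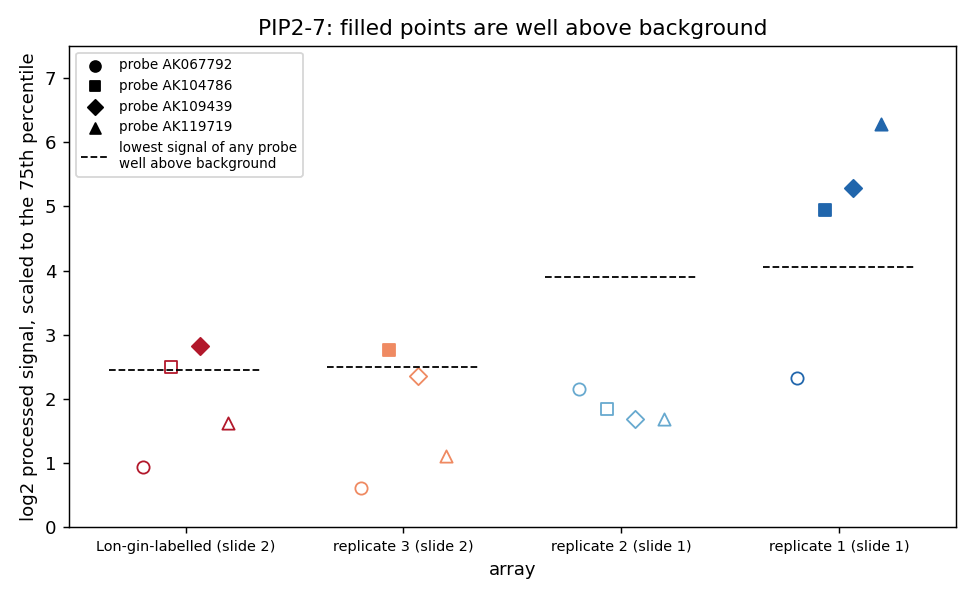
Scaled log2 signal of the 4 PIP2-7 probes on each array, filled where the probe was well above background, with the dashed line at the lowest signal of any probe well above background on that array. On replicate 1, 3 probes are filled and lie between 4.95 and 6.28, while on replicate 2 none is filled.

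The spread between the 4 arrays was then set beside that of all genes. The median SD was 1.02 over the 9 detected PIP genes, beside 0.382 over all 20143 detected genes. Arrays lay more than 4-fold apart for 5 of the 9, namely PIP1-3, PIP2-3, PIP2-4, PIP2-5 and PIP2-6, against 12.0% of all genes. Without replicate 1 the count was 1, PIP1-3, against 7.48% of all genes, and it was 2 of 9 with normexp, against 3.22%, and 9 of 9 without scaling, against 30.3%. Counts of this kind were defined after the values had been seen, and carry no test.

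Replicate 1 had the lowest value for 7 of the 9 PIP genes, against 28.8% of all genes, and the highest for 0, against 33.0%. The exceptions were PIP1-1 and PIP1-3. Its partner on slide 1, replicate 2, was higher for 9 of 9 PIP genes, against 47.5% of all genes, and more than 2-fold higher for 5 of 9, against 7.95%, and more than 2-fold lower for 0, against 1.07%. Replicate 2 minus replicate 1 had a median of 1.46 over the 9 PIP genes, beside -0.03 over all genes. The median was 0.87 for the 3 PIP1 genes and 1.74 for the 6 PIP2 genes. The differences were 2.26 for PIP2-3, 2.06 for PIP2-5, 1.48 for PIP2-6 and 1.46 for PIP2-2, PIP2-4 was 4.01-fold higher on replicate 2, and the other 4 lay between 0.16 for PIP1-1 and 0.97 for PIP1-3. For CSLD1 the same difference was -0.20, that is, replicate 1 was slightly the higher. Replicate 1 also had the lowest 75th percentile and the smallest share of detected probes, and the part of these in the PIP values was not tested. With normexp, 3 of the 9 genes were more than 2-fold higher on replicate 2, against 2.65% of all genes, and without scaling 8 were, against 10.5%. With 1 array on each side this is a difference between 2 samples and has no replicate check.

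Within slide 2, the Lon-gin-labelled array was higher than replicate 3 for 6 of the 9 PIP genes, against 48.7% of all genes. It was more than 2-fold higher for 3, against 8.88%, and more than 2-fold lower for 0, against 4.02%. These 3 were PIP2-6, with a difference of 1.97, PIP1-1 with 1.43 and PIP2-3 with 1.15. The 3 genes lower on the Lon-gin-labelled array than on replicate 3 were PIP2-5 at -0.74, PIP2-4 at -0.31 and PIP1-2 at -0.02. The pair PIP2-4 and PIP2-5, neighbours on chromosome 7, thus differed in sign from the other PIP2 genes here. Those others included PIP2-1, which also neighbours PIP2-5, at 0.43.

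**Figure D4:**
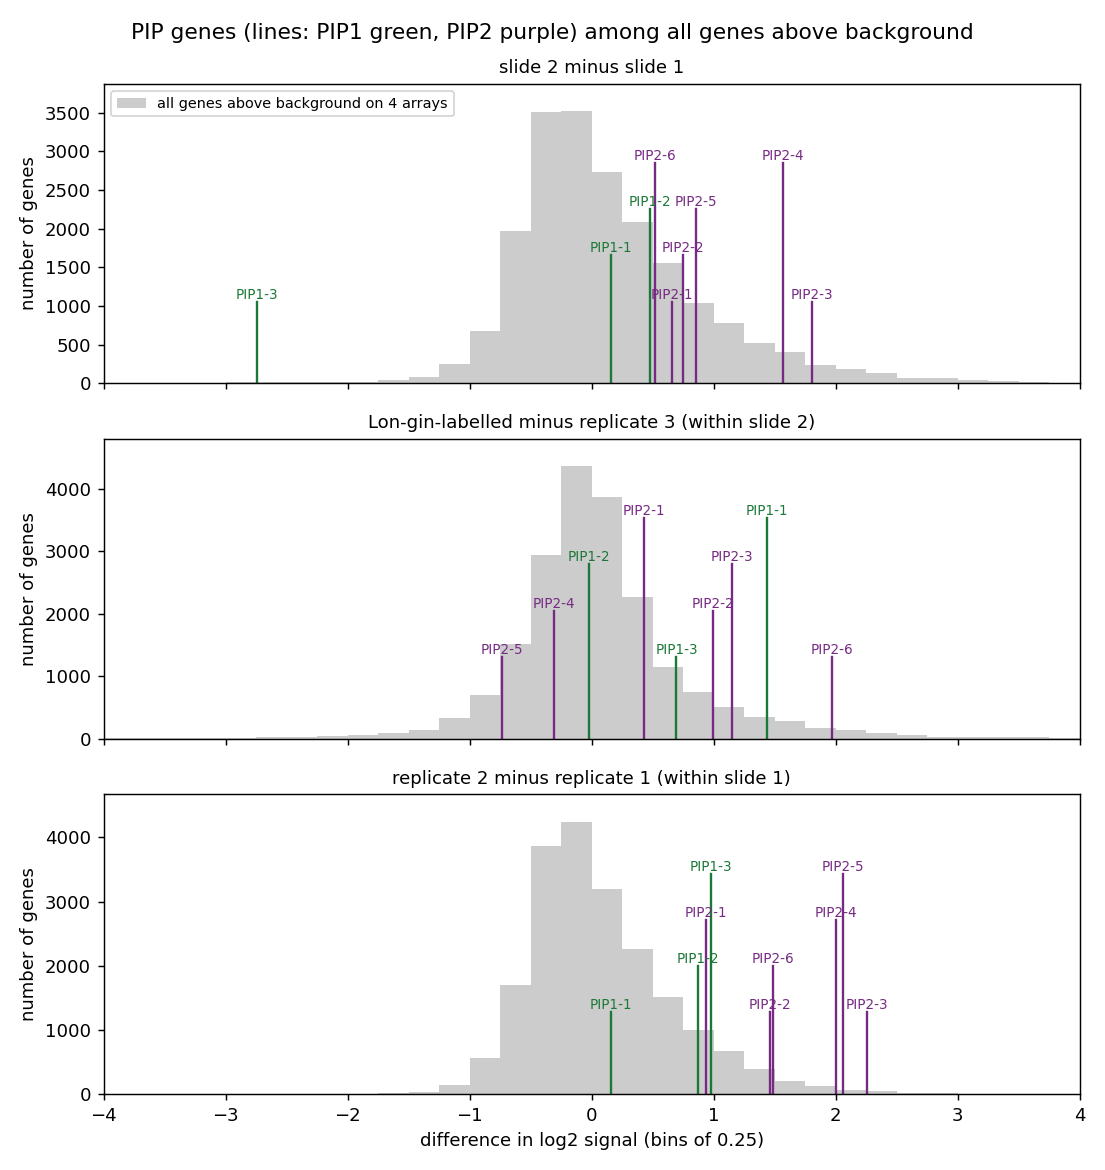
Log2 differences of the 9 detected PIP genes (vertical lines of arbitrary height, green for PIP1 and purple for PIP2) over the histogram of all 20143 detected genes in bins of 0.25. Slide 2 minus slide 1 is in the top panel, the Lon-gin-labelled array minus replicate 3 in the middle and replicate 2 minus replicate 1 at the bottom, where all 9 lines lie above 0 while the median of all genes is -0.03.

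The Lon-gin-labelled array was then set against the mean of the 3 Don-gin-labelled arrays. It was above that mean for 8 of 9 PIP genes, against 51.5% of all genes, and above each of the 3 for 5 of 9, against 25.8%. The first count was 7 where PIP2-5 changed sign. This was under quantile normalization (38.1% of all genes), under normexp (37.6%) and without replicate 1 (51.5%). It stayed 8 without scaling and with the authors' values, against 96.4% and 75.3% of all genes. The median difference over the PIP genes was 0.84, beside 0.02 over all genes. In limma, 0 of the 27 PIP probes tested were called after Benjamini-Hochberg adjustment over 37644 probes, of which 0.00266% were called, and 3 had an unadjusted p under 0.05, against 8.44% of all probes. These were both transcript 01 probes of PIP1-1, at 1.43 with a standard error of 0.41 (limma adjusted p = 0.435) and 1.38 with a standard error of 0.41 (limma adjusted p = 0.463), and the transcript 02 probe of PIP2-6, at 2.10 with a standard error of 0.71 (limma adjusted p = 0.516). The 27 probes included AK109439 of PIP2-7, which was not well above background on replicates 3 and 2. The fit had 2 residual degrees of freedom and assumes that the lone array varied like the others. The label cannot be told apart from the array itself, and slide 2 holds it.

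Between slides, the 2 values of slide 2 exceeded the 2 of slide 1 for 3 of the 9 PIP genes (PIP1-2, PIP2-3 and PIP2-4), against 25.9% of all genes. The count was 7 without scaling, against 85.3% of all genes, and 7 with the authors' values, against 64.8%. It was also 7 without replicate 2 (38.5% of all genes) and without replicate 3 (40.6%), where fewer values have to be separated. Without the Lon-gin-labelled array, slide 2 lay below for 2 genes, PIP1-3 and PIP1-1, against 40.7% of all genes. The PIP1-2 slides were separated only narrowly, with 14.90 the lower value on slide 2 and 14.87 the higher on slide 1. The median slide 2 minus slide 1 was 0.66 over the 9 PIP genes, beside -0.01 over all genes. It was 0.80 for the 6 PIP2 genes and 0.16 for the 3 PIP1 genes, whose values were -2.74, 0.16 and 0.48. In limma 0 of 26 PIP probes were called, against 3.13% of all probes tested, and only the PIP1-3 probe had an unadjusted p under 0.05, against 20.7%. The difference was 1.80 for PIP2-3 (limma adjusted p = 0.327) and 1.57 for PIP2-4 (limma adjusted p = 0.304), each with a low value on replicate 1. PIP1-3 was the 1 detected PIP gene below 0.

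Of the other aquaporins, 1 could be tied to an annotated name, the tonoplast intrinsic protein gene TIP2;1 (Os02g0658100), whose product is placed in the vacuolar membrane. It had 14.38 on the Lon-gin-labelled array, 14.35 on replicate 3, 14.14 on replicate 2 and 14.19 on replicate 1, or 14.26 ± 0.12 (SD, n = 4). Its arrays lay within 1.19-fold of each other, whereas those of the PIP genes spanned 1.89-fold for PIP1-2 to 11.9-fold for PIP1-3. TIP2;1 was, however, also steadier than most genes. Its SD of 0.12 and log2 range of 0.249 compare with medians of 0.382 and 0.847 over all 20143 detected genes. As 1 gene, TIP2;1 cannot show how steady other tonoplast aquaporins were. Neither of its probes was called for the Lon-gin-labelled array or for the slides.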

How the data were processed

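Root-hair RNA was measured on 4 arrays in 1 colour. The deposited intensity values are spot signals that the authors extracted with Agilent Feature Extraction (11.5.1.1 in the file headers, 9.1 in the submitters' processing notes). A second deposited table holds log2 values with a normalization not given in the sources used. These rank the probes as the median spot signal does, with a median of 8.39 for each array of slide 2 and 7.59 for each array of slide 1, so scaling between slides is unknown. They served as an alternative. The number of arrays limits precision, and 0 sample columns were left unused.

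Control spots and 126 outlier spot values were left out. Processed signals were put on a log2 scale, averaged over spots of a probe, reduced by the array's 75th percentile, raised by the mean of these percentiles (11.15), and averaged over the probes of a gene. A gene was detected if 1 of its probes was well above background on all 4 arrays. A further 588 probes carried no RAP gene identifier. Differences were tested with limma 3.58.1 (lmFit, eBayes) in R 4.3.3, Benjamini-Hochberg adjusted over all probes well above background on every array of either side, with 2 residual degrees of freedom. The procedure was tested on simulated data, where recovery was required only for changes larger than any PIP difference given here. The p-values measure the spread between these samples. Tables and plots used Python 3.11.15, numpy 2.4.6, pandas 2.3.3, scipy 1.17.1 and matplotlib 3.10.9.

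The members and lists were chosen with earlier results of these data known. The rule for named genes took each of the 10 PIP genes examined and their probes, with other aquaporins only where undetected on an array or called. TIP2;1, outside that rule, was named as the 1 aquaporin kept. PIP names were matched to RefSeq synonyms for 10 of 10 genes. Other listed aquaporins and markers, apart from CSLD1 and TIP2;1, had no name for their identifier in the sources used here and were dropped, so RNA of other root cells was not assessed. Alternatives were quantile normalization, no scaling, normexp with an offset of 50 on the median signal (the mean signal was not used here), the authors' log2 values, the brightest probe, outlier spots kept, no detection filter, slide as a block, and each array left out.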

Additional observations from a re-analysis of the deposited data

Results flagged for a closer look

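Among the PIP genes well above background on all 4 arrays, an array stood far from the other 3 for PIP1-2, measured as its gap to the nearest array over the range of all 4 and judged by Dixon's 95% limit. The ratio was 0.944, with replicate 1 low. This was 1 of 9 genes, against 4.85% of all genes, near the share that chance gives. PIP2-7 was not judged, since its mean over probes lay below the detection limit on 3 arrays and gives no measured gap.

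Single probes with such a gap belonged to PIP1-2 and PIP1-1. For PIP1-2 the ratio was 0.969 for AK065188, 0.947 for AK098849 and 0.851 for AK104736, each with replicate 1 low. For PIP1-1 it was 0.929 for AJ224327 and 0.868 for AK103807, the 2 probes of transcript 01, with the Lon-gin-labelled array high.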

How the results depend on the processing

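Without scaling between arrays, slide 2 lay above slide 1 for 7 PIP genes (85.3% of all genes), arrays were more than 4-fold apart for 9 (30.3%), the Lon-gin-labelled array was more than 2-fold above replicate 3 for 5 (13.9%), and replicate 2 was more than 2-fold above replicate 1 for 8 (10.5%). Unscaled, the median of all genes was itself 0.98 higher on slide 2. With normexp, arrays were more than 4-fold apart for 2 genes (3.22%) and replicate 2 was more than 2-fold above replicate 1 for 3 (2.65%). With the authors' values slide 2 lay above for 7 genes (64.8%), beside a median shift of 0.52 over all genes. Quantile normalization and normexp shifted that median by -0.20 and -0.13.

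With arrays left out in turn, the number of genes more than 4-fold apart ranged from 1 to 5 (1 without replicate 1, against 7.48% of all genes), slide 2 above from 3 to 7 (7 without replicate 2 or replicate 3, against 38.5% and 40.6%) and slide 2 below from 1 to 2 (2 without the Lon-gin-labelled array, against 40.7%). PIP probes called ranged from 0 to 1 for the Lon-gin-labelled array (1 without replicate 3) and from 0 to 1 for the slides (1 without replicate 3 or the Lon-gin-labelled array). The called probe was that of PIP1-3, and of all probes 12.3% were called without replicate 3 and 8.41% without the Lon-gin-labelled array. Without replicate 3, slide 2 is the Lon-gin-labelled array alone, so both comparisons are then the same fit.

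PIP2-5 changed sign for the Lon-gin-labelled array minus the others under quantile normalization, under normexp and without replicate 1. For slide 2 minus slide 1, the sign changed for PIP2-5 and PIP2-6 without replicate 1, for PIP1-1 and PIP2-6 without the Lon-gin-labelled array, and for PIP1-1 with its brightest probe. Replicate 2 minus replicate 1 changed sign for 0 of the 9 genes under any normalization, with outlier spots kept or with the brightest probe. Leaving out replicate 3 or the Lon-gin-labelled array cannot alter this difference. With slide as a block, 0 of 27 PIP probes were called, against 5.12% of all probes, with 1 residual degree of freedom. The cause of these changes was not tested. No paired analysis was possible because the arrays form 1 group and share no replicate numbers across groups.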
